A study of Homo sapiens with 13 samples.

Results

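KLHL11, RASD1, POLR2M, PHLDA2, PPAN-P2RY11, C2orf27A and RXRG were followed through all of their array probes in CCRF-CEM leukemia cells. These 7 genes, of 25940 gene names on the array, were chosen by measured values, namely by how far their signals stood apart between FK866-treated and mock-treated parental cells. That contrast is therefore given as a description with no test, and the tests of the 7 genes use arrays of the resistant cells, alone or against mock-treated parental cells. The genes were grouped as responders of the parental cells only. A small difference in the resistant cells may thus have entered the choice too, which limits these tests. Genes that are not among the 7 were tested in the parental cells too. The 7 genes were measured by 9 of the array's 34127 probes and by 18 of its 43118 non-control spots, since RASD1 was printed in 10 spots and every other probe in 1.

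FK866 blocks NAMPT, the enzyme that turns nicotinamide into the precursor from which most cells rebuild NAD+. The genes do not belong to 1 pathway. KLHL11 is a kelch protein that hands substrates to the CUL3 ubiquitin ligase, RASD1 is a RAS-like GTPase first found as a dexamethasone-induced gene, and POLR2M (Gdown1) is a protein that associates with RNA polymerase II. PHLDA2 is an imprinted gene that restrains growth of the placenta, and RXRG is a nuclear receptor that pairs with other receptors on DNA. PPAN-P2RY11 is a readthrough transcript that joins PPAN, a nucleolar factor of large ribosomal subunit assembly, to P2RY11, a receptor for extracellular ATP, and C2orf27A is listed by RefSeq as a long non-coding RNA, LINC03124.

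CCRF-CEM cells come from a human T-lineage acute lymphoblastic leukemia and were used as parental cells (CEM PA) and as a derivative selected by stepwise FK866 exposure until it resisted 100 nM (CEM RES). CEM RES was selected and the study's methods keep it under 100 nM FK866, so its mock arrays do not stand for drug-naive cells. The paper describes no drug removal before the mock treatment of these arrays. FK866 against mock may thus not be the same contrast in CEM RES as in CEM PA. The 4 groups were CEM PA mock (DMSO for 48 h, 3 arrays), CEM PA FK866 (5 nM for 48 h, 2 arrays), CEM RES mock (DMSO for 48 h, 4 arrays) and CEM RES FK866 (5 nM for 48 h, 4 arrays). On the 13 arrays 26457 to 33239 spots were well above background by Agilent's own flag, and none was saturated (0 on each array). Of 10 T cell markers, 10 were well above background in each group; so were 3 or 4 of 4 B cell markers, CD14 of 3 myeloid markers and KRT8 of 3 epithelial markers. CEM PA was scanned in sessions 1 and 2 and CEM RES in session 3, on other slides, so line and scan session cannot be told apart.

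What each probe reads sets how its values can be taken, so the probes of the 4 genes with alternative or shared transcripts are printed here as the array files give them, 5′ to 3′, with positions on hg19. The RXRG pair is shown because its members read different transcripts, and the POLR2M probe because it reads a non-coding variant. The C2orf27A probe is shown because the array files label it as an mRNA, while RefSeq lists the gene as non-coding. The PPAN-P2RY11 probe is shown because it lies in the P2RY11 end of the readthrough.
RXRG A_23_P23292, mRNA, chr1:165386359-165386418, minus strand: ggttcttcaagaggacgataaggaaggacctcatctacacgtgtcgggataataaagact
RXRG A_33_P3308764, non-coding variant, chr1:165406166-165406225, minus strand: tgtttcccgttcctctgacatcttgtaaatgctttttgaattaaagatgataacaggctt
POLR2M A_33_P3358712, non-coding variant, chr15:57999248-57999307, plus strand: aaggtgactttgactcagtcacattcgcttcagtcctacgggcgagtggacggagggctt
C2orf27A A_33_P3416881, chr2:132509098-132509157, plus strand: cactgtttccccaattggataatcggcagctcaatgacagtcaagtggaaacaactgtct
PPAN-P2RY11 A_23_P4696, chr19:10225130-10225189, plus strand: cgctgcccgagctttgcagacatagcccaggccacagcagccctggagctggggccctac
No part is in capitals because each probe hybridizes over its 60 bases. The second PPAN-P2RY11 probe, A_33_P3239759, lies 530 bases further on, at chr19:10225660-10225719. Both carry the RefSeq accession of P2RY11 beside that of the readthrough, so these probes cannot tell the 2 transcripts apart. KLHL11 was read by A_23_P55388 (chr17:40009940-40009999, minus strand), RASD1 by A_23_P118392 (chr17:17397787-17397846, minus strand) and PHLDA2 by A_23_P47614 (chr11:2949696-2949755, minus strand), all from mRNAs. The longest run of bases that a probe of these genes shared with any other probe on the array was 12 to 16 of 60.

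In CEM PA, the signals of KLHL11, RASD1, POLR2M and PHLDA2 were higher with FK866 than with mock by 2.31 to 2.69 on the log2 scale. Those of PPAN-P2RY11, C2orf27A and the non-coding RXRG probe were lower, with differences of -1.13 to -1.64. All levels are log2 signals, quantile normalized over the 13 arrays, and the level of 1 probe says nothing against that of another. Among the 22751 probes kept, those with signal well above background throughout 1 group or more, RASD1 had the 9th and KLHL11 the 12th largest rise. The PPAN-P2RY11 probes stood at the 95th and the 271st largest fall. Of the 9 probes, 8 passed this filter, POLR2M and PHLDA2 only through the CEM PA FK866 arrays on which they were high. The non-coding RXRG probe passed only through the CEM RES FK866 arrays, where its mean was highest, and the RXRG mRNA probe did not pass. For all 8 the CEM PA FK866 and mock arrays did not overlap, as for 34.8% of probes overall; the genes were picked on this contrast, so nothing is read from that count. With background corrected by normexp instead, the CEM PA differences of the dim probes shrank, to 1.41 for RASD1, 0.38 for POLR2M, 0.29 for PHLDA2, -0.24 for C2orf27A and -0.06 for RXRG, while KLHL11 kept 2.16. The normexp setting adds an offset of 50 to every signal, which by itself pulls the differences of dim probes toward 0. This holds for every normexp value below. How much of the shrinkage comes from the offset was not tested. In bulk RNA, fewer cells of a kind and less RNA per cell cannot be told apart.

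**Figure D1:**
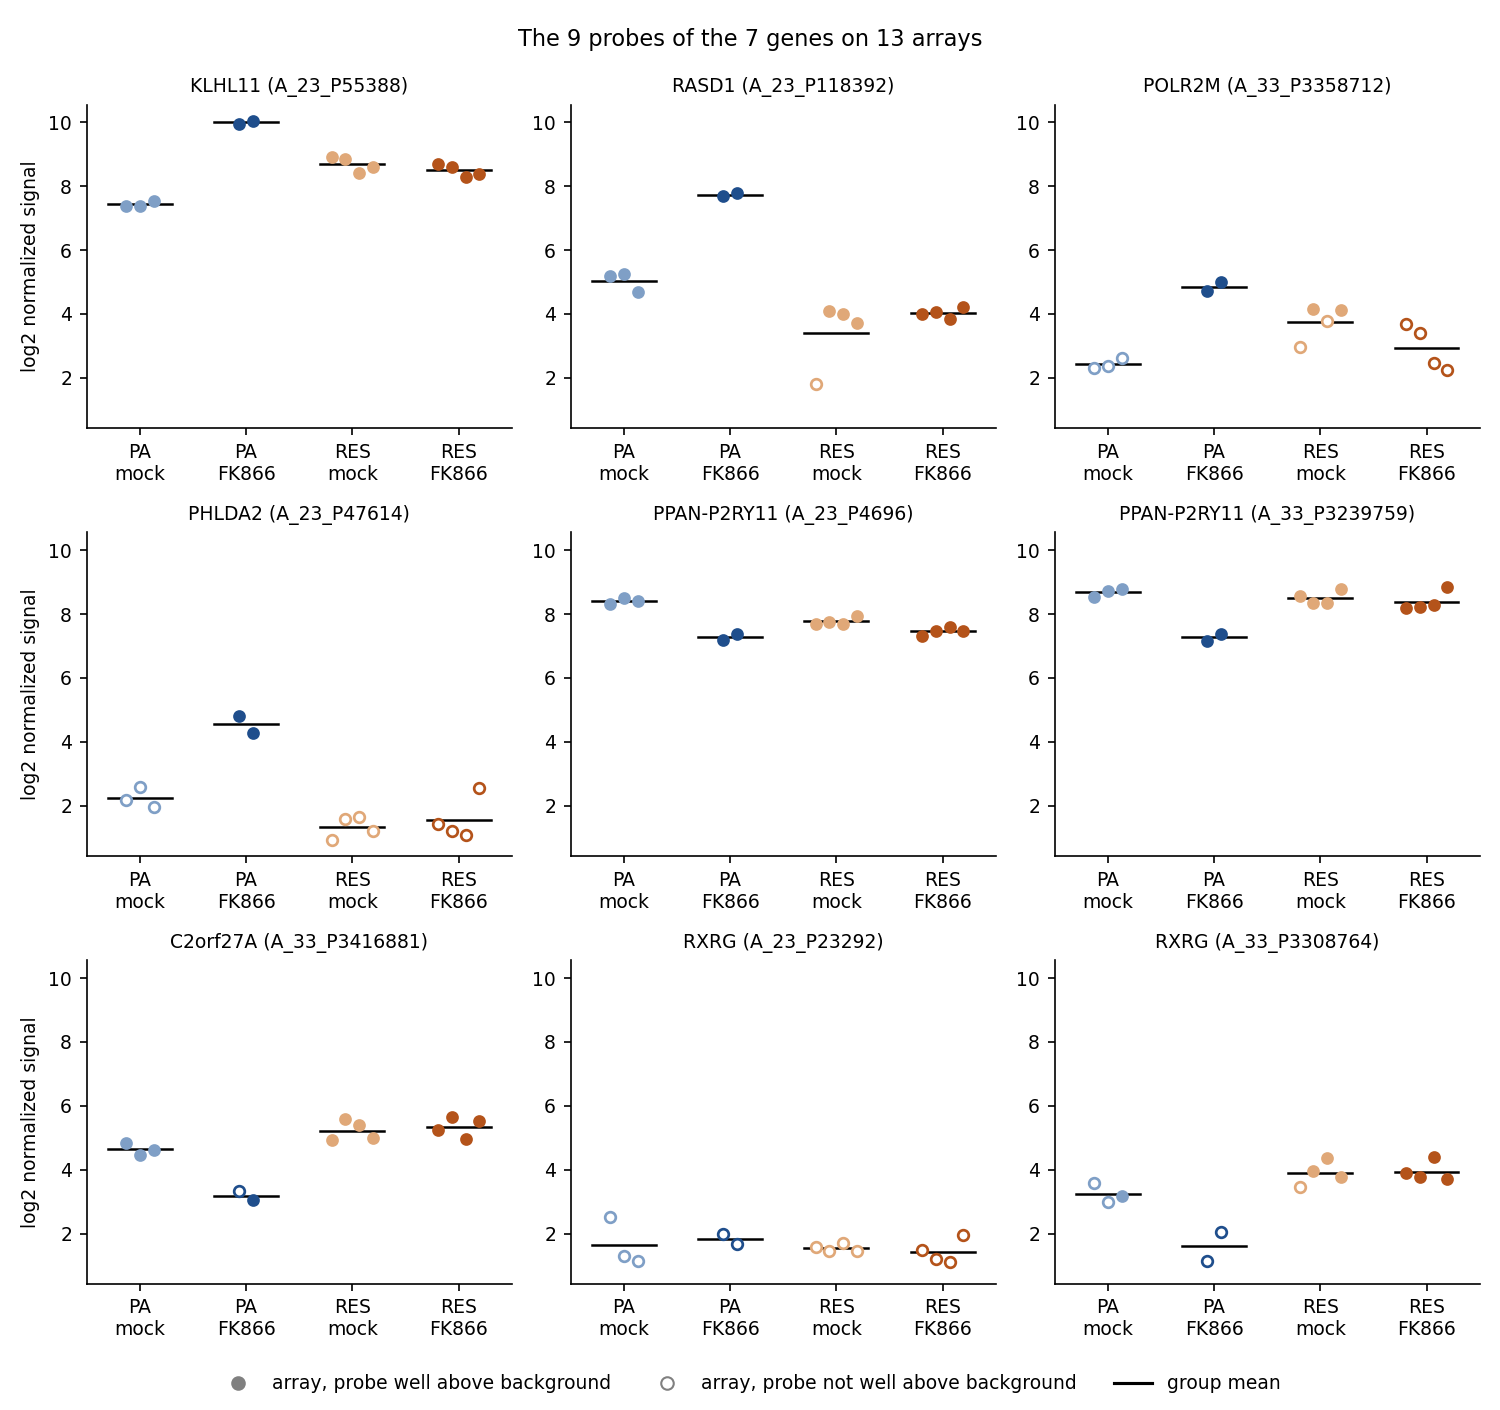
Log2 normalized signal (vertical axis) of each of the 9 probes in the 4 groups (horizontal axis), 1 point per array and a line at the group mean; open points are arrays where the probe was not well above background. The 2 CEM PA FK866 arrays lie above the CEM PA mock arrays for KLHL11, RASD1, POLR2M and PHLDA2 and below them for both PPAN-P2RY11 probes, C2orf27A and RXRG A_33_P3308764, whereas the CEM RES mock and FK866 arrays overlap for all probes but PPAN-P2RY11 A_23_P4696.

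KLHL11, the kelch adaptor, was well above background on all 13 arrays. It stood at 7.37, 7.39 and 7.54 on the CEM PA mock arrays and at 9.95 and 10.06 with FK866, a difference of 2.57 or 5.92-fold, and the difference was 2.57 within scan session 1 and 2.59 within session 2. In CEM RES it stood at 8.91, 8.85, 8.42 and 8.62 on the mock arrays and at 8.70, 8.62, 8.29 and 8.39 with FK866. The CEM RES groups overlap, and all 8 CEM RES arrays lie between the mock and the FK866 arrays of CEM PA. The difference in CEM RES was -0.20 (SE 0.145, 95% interval -0.52 to 0.12, limma adjusted p = 0.956), with -0.02 within slide 5 and -0.38 within slide 6. Within the pairs of equal replicate number the FK866 array was lower in 4 of 4, by -0.23 to -0.13, and a limma fit blocked on these pairs gave an unadjusted p of 0.0457 and an adjusted p of 0.442. Mock CEM RES were 2.40-fold higher in KLHL11 than mock CEM PA (log2 difference 1.26, SE 0.157, limma adjusted p = 6.46e-05). The 3 mock CEM PA arrays of that comparison also took part in choosing the genes, which holds for every comparison of the lines below.

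RASD1 had the largest difference in CEM PA of the 7 genes. The mean of its 10 spots was 5.20, 5.24 and 4.69 on the CEM PA mock arrays and 7.69 and 7.77 with FK866, a difference of 2.69 or 6.45-fold (2.49 and 2.81 within scan sessions 1 and 2). In CEM RES it was 1.80, 4.10, 4.00 and 3.70 on the mock arrays and 3.99, 4.06, 3.86 and 4.22 with FK866. Every CEM RES array lies below every CEM PA array, and CEM RES mock replicate 1 lies lowest. On that array 0 of the 10 RASD1 spots were well above background, their median processed signal was 3.06, and their coefficient of variation was 56.0%, against 6.74% to 16.1% on the CEM PA arrays. The FK866 difference in CEM RES was 0.63 (SE 0.40, 95% interval -0.25 to 1.51, limma adjusted p = 0.950), 0.07 within slide 5 and 1.19 within slide 6, which holds that array, and 0.10 without the array. Mock CEM RES were 3.13-fold lower than mock CEM PA (log2 difference -1.64, SE 0.44, limma adjusted p = 0.00834), and without the array the difference was -1.13 (adjusted p = 0.000615). With background corrected by normexp it was -0.32 (adjusted p = 0.00846).

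**Figure D2:**
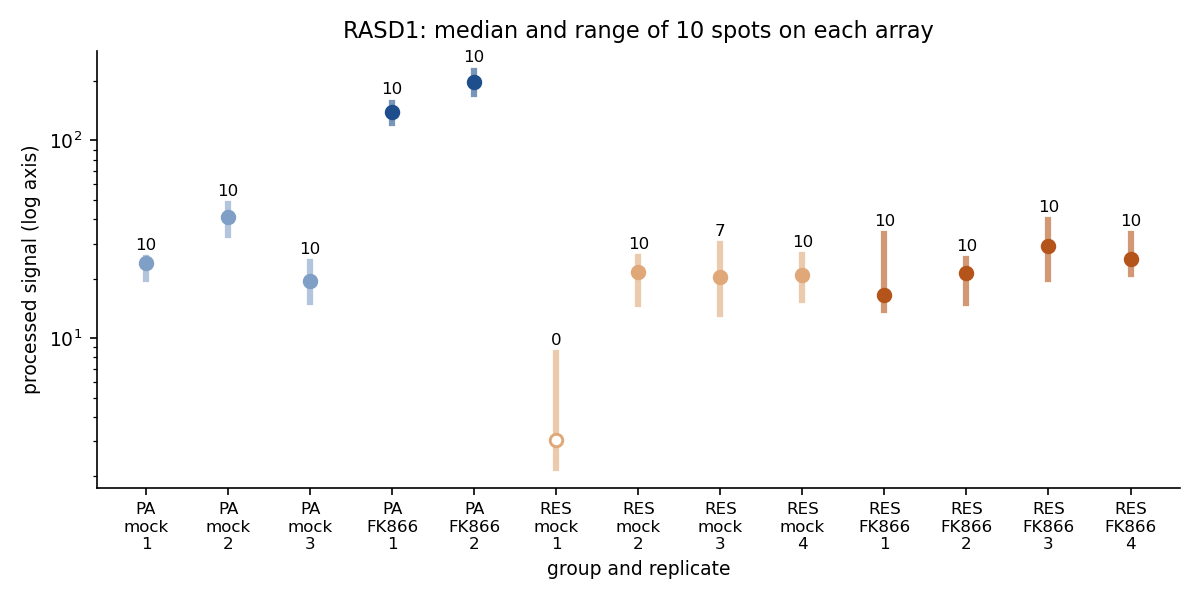
Processed signal of the 10 RASD1 spots on each array before normalization between arrays (vertical log axis), with the median as a point, the lowest to highest spot as a bar and the number of spots well above background above it. The medians of the 2 CEM PA FK866 arrays, 139 and 198, lie above those of all other arrays, and CEM RES mock replicate 1 has 0 spots well above background.

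The POLR2M probe reads a non-coding variant and was dim. It was not well above background on any of the 3 CEM PA mock arrays, at 2.30, 2.37 and 2.61, and well above it on both FK866 arrays, at 4.71 and 5.00. The measured difference was 2.43. As the mock level is only a bound, the signal was at least 3.08-fold higher with FK866 under Agilent's background subtraction. With normexp, whose offset shrinks differences of dim probes, the difference was 0.38. The 3.08-fold is thus not a bound across background corrections. Within scan sessions 1 and 2 the difference was 2.42 and 2.51. In CEM RES the probe stood at 2.98, 4.17, 3.77 and 4.11 on the mock arrays, 2 of 4 well above background, and at 3.67, 3.39, 2.48 and 2.26 with FK866, 0 of 4 well above background. These groups overlap. The difference of -0.81 (SE 0.33, 95% interval -1.52 to -0.09; -0.87 and -0.75 within slides 5 and 6) had an unadjusted p of 0.0303 in limma and an adjusted p of 0.938, and was -0.07 (adjusted p = 0.967) with normexp. Mock CEM RES were higher than mock CEM PA by 1.33 (SE 0.36, limma adjusted p = 0.00863), but by 0.13 (adjusted p = 0.302) when background was corrected with normexp.

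The mRNAs of POLR2M are reached by a different probe, filed under GCOM1. GCOM1 is a readthrough gene that runs into POLR2M, and probe A_24_P116378, 10155 bases downstream of the POLR2M probe, carries 2 RefSeq mRNA accessions of POLR2M beside 2 of GCOM1. It was well above background on all 13 arrays. Its mean was 9.26 ± 0.09 (SD, n = 3) in CEM PA mock and 9.64 ± 0.01 (n = 2) with FK866, a difference of 0.38 (SE 0.14, limma adjusted p = 0.237). In CEM RES it was 10.31 ± 0.10 with mock and 10.34 ± 0.08 with FK866 (n = 4 each; difference 0.02, adjusted p = 1.00), and mock CEM RES were higher than mock CEM PA by 1.06 (SE 0.12, adjusted p = 3.53e-05).

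PHLDA2 was well above background only with FK866 in CEM PA. It stood at 4.81 and 4.27 there, against 2.17, 2.58 and 1.95 on the mock arrays. The difference was 2.31 (2.64 and 2.01 within scan sessions 1 and 2), at least 2.59-fold under Agilent's background subtraction. With normexp, whose offset shrinks differences of dim probes, the difference was 0.29. The 2.59-fold is thus not a bound across background corrections. On the CEM RES arrays it stood at 0.92, 1.59, 1.64 and 1.21 with mock and at 1.43, 1.21, 1.08 and 2.55 with FK866, 0 of 8 well above background. Levels not well above background give no sure order, so the CEM RES difference of 0.22 (95% interval -0.44 to 0.89, limma adjusted p = 1.00) and that between the lines, -0.89 (SE 0.33, limma adjusted p = 0.0418), are given with no fold. The latter call was lost when any of CEM PA mock replicates 1 or 2, CEM RES mock replicates 1 or 4, CEM PA FK866 replicate 1 or CEM RES FK866 replicate 1 was left out (differences of -0.98 to -0.69, adjusted p = 0.0508 to 0.155). Within slides 5 and 6 the CEM RES difference was -0.17 and 0.62.

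SLC22A18 and CDKN1C, neighbours of PHLDA2 in the imprinted cluster, did not pass the test with FK866 in CEM PA. SLC22A18, a transporter gene whose probe lies 3361 bases away, stood at 12.49 ± 0.12 (SD, n = 3) with mock and 12.28 ± 0.10 (n = 2) with FK866 (limma adjusted p = 0.903), and CDKN1C, a cyclin-dependent kinase inhibitor gene, at 9.42 ± 0.36 and 9.36 ± 0.10 (adjusted p = 0.982). Between the lines both were lower in mock CEM RES, SLC22A18 by -1.14 (SE 0.39, limma adjusted p = 0.0293) and CDKN1C by -2.76 (SE 0.43, adjusted p = 0.000317).

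Both PPAN-P2RY11 probes were well above background on all 13 arrays. A_23_P4696, in the P2RY11 coding end, stood at 8.32, 8.50 and 8.42 on the CEM PA mock arrays and at 7.19 and 7.38 with FK866, a difference of -1.13 (2.19-fold lower). A_33_P3239759, 530 bases downstream, stood at 8.54, 8.74 and 8.78 and at 7.16 and 7.39, a difference of -1.41 (2.65-fold lower). Within scan sessions 1 and 2 the differences were -1.13 and -1.08 for the first probe and -1.38 and -1.37 for the second. In CEM PA the probes thus gave the same direction, with no overlap between groups at either.

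In CEM RES both probes had differences below 0. A_23_P4696 stood at 7.68, 7.75, 7.70 and 7.95 with mock and at 7.31, 7.48, 7.58 and 7.48 with FK866, with no overlap. The difference of -0.31 (SE 0.12, 95% interval -0.57 to -0.04) had an unadjusted p of 0.0255 in limma and an adjusted p of 0.938, and was -0.38 and -0.23 within slides 5 and 6. Within the pairs of equal replicate number the FK866 array was lower in 4 of 4 for A_23_P4696, by -0.48 to -0.11. For the second probe it was lower in 3 of 4. A_33_P3239759 stood at 8.55, 8.34, 8.36 and 8.78 with mock and at 8.19, 8.23, 8.29 and 8.85 with FK866, where replicate 4 is above the other FK866 arrays. Its groups overlap, and the difference was -0.11 (SE 0.17, 95% interval -0.48 to 0.25, limma adjusted p = 1.00; -0.33 and 0.10 within slides 5 and 6). Between the lines, A_23_P4696 was 1.56-fold lower in mock CEM RES (log2 difference -0.64, SE 0.13, limma adjusted p = 0.00168), and A_33_P3239759 differed by -0.18 (SE 0.18, 95% interval -0.58 to 0.22, adjusted p = 0.449).

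Whether the probes differ in these responses was tested on their difference within each array. A_23_P4696 minus A_33_P3239759 was -0.27 ± 0.08 (SD, n = 3) in mock CEM PA and -0.74 ± 0.13 (n = 4) in mock CEM RES, a change of -0.47 with no overlap (exact two-sided permutation p = 0.0571, the smallest that 3 against 4 arrays allow, and 0.114 adjusted over 2 such tests). With FK866 in CEM RES it was -0.93 ± 0.31 (n = 4), a change of -0.19 from mock (exact two-sided permutation p = 0.343).

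PPAN has a probe under its own name, A_23_P16096, 6386 bases upstream of A_23_P4696. It carries a RefSeq accession of PPAN and none of the readthrough. The readthrough also holds PPAN sequence, and whether this probe reads it too was not checked. It stood at 9.73 ± 0.17 (SD, n = 3) in CEM PA mock and 10.04 ± 0.14 (n = 2) with FK866, a difference of 0.31 (SE 0.22, limma adjusted p = 0.584). In CEM RES it stood at 9.57 ± 0.25 with mock and 9.35 ± 0.26 with FK866 (n = 4 each; difference -0.22, SE 0.17, adjusted p = 0.970). EIF3G, a translation initiation factor gene whose probe lies 2506 bases downstream of A_23_P4696, differed in CEM PA by 0.33 (SE 0.20, adjusted p = 0.496).

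**Figure D3:**
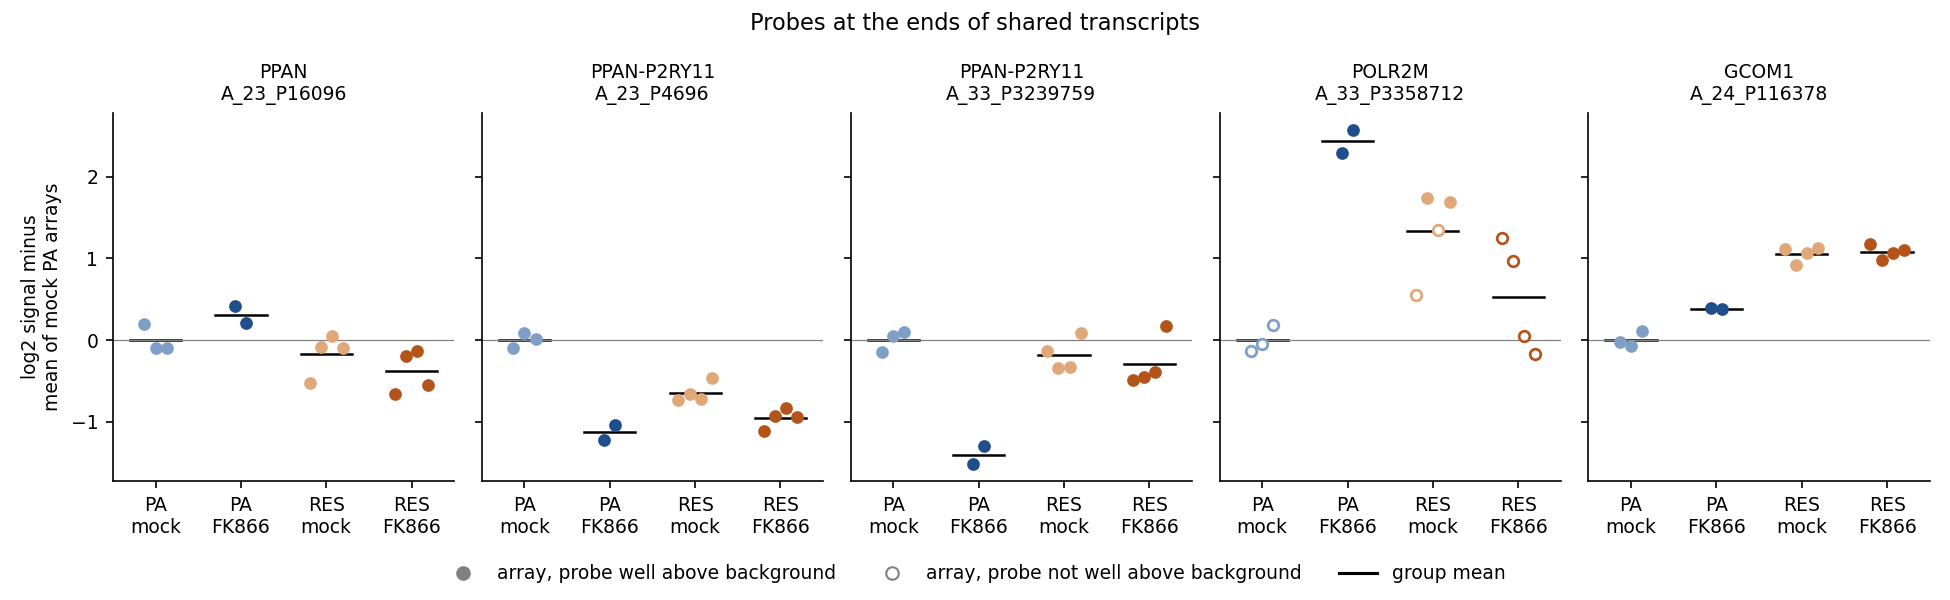
Log2 signal minus the mean of the CEM PA mock arrays (vertical axis) for the probes of PPAN, PPAN-P2RY11, POLR2M and GCOM1 in the 4 groups (horizontal axis), 1 point per array, open where the probe was not well above background, and a line at the group mean. With FK866 in CEM PA both PPAN-P2RY11 probes lie more than 1 below mock and POLR2M 2.43 above it, while the PPAN and GCOM1 probes lie 0.31 and 0.38 above mock. The POLR2M points of CEM PA mock are open and give only a bound. With normexp, whose offset shrinks differences of dim probes, the POLR2M difference is 0.38.

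C2orf27A, now a long non-coding RNA gene, stood at 4.84, 4.45 and 4.61 on the CEM PA mock arrays and at 3.33 and 3.04 with FK866, a difference of -1.45 or 2.74-fold lower (-1.52 and -1.50 within scan sessions 1 and 2). It was well above background on 12 of 13 arrays, the exception being CEM PA FK866 replicate 1. In CEM RES it stood at 4.92, 5.58, 5.41 and 4.99 with mock and at 5.23, 5.66, 4.96 and 5.52 with FK866, and these groups overlap. The difference was 0.12 (SE 0.20, 95% interval -0.31 to 0.55, limma adjusted p = 1.00; -0.11 and 0.34 within slides 5 and 6). Mock CEM RES were 1.51-fold higher than mock CEM PA (log2 difference 0.59, SE 0.21, limma adjusted p = 0.0374), with no overlap. The call was lost when any of CEM PA mock replicates 2 or 3, CEM RES mock replicates 2 or 3 or CEM PA FK866 replicate 1 was left out (differences of 0.47 to 0.59, adjusted p = 0.0511 to 0.126). A probe with an Ensembl accession in common, A_33_P3349455, whose design position is on chromosome 14, had mean levels of 6.41 and 6.31 in CEM PA mock and FK866 and of 6.57 and 6.82 in CEM RES.

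RXRG differed by probe. The mRNA probe A_23_P23292 was well above background on 0 of 13 arrays, with 1.12 to 2.50 as its lowest and highest level, and gives no measure of RXRG mRNA. The non-coding probe A_33_P3308764, 19807 bases away, stood at 3.57, 3.00 and 3.17 on the CEM PA mock arrays, 1 of 3 well above background, and at 1.15 and 2.05 with FK866, 0 of 2 well above background. The difference of -1.64 was -2.42 within scan session 1 and -1.03 within session 2, and -1.19 or -2.06 without CEM PA FK866 replicate 1 or 2. In CEM RES the non-coding probe was well above background on 7 of 8 arrays, at 3.47, 3.96, 4.37 and 3.76 with mock and at 3.90, 3.78, 4.40 and 3.70 with FK866. The probe was kept for testing only through these FK866 arrays, which are part of the CEM RES comparison. These groups overlap, and the difference was 0.05 (SE 0.25, 95% interval -0.49 to 0.59, limma adjusted p = 1.00; 0.08 and 0.02 within slides 5 and 6). Mock CEM RES stood higher than mock CEM PA by 0.65 (SE 0.27, 95% interval 0.06 to 1.23), which did not pass (limma adjusted p = 0.0658). It passed without CEM PA FK866 replicate 2, CEM RES FK866 replicate 3 or CEM RES mock replicate 1 (differences of 0.65, 0.65 and 0.80, adjusted p = 0.0478, 0.0497 and 0.0344).

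Over the 7 genes, FK866 gave no call in CEM RES. A small CEM RES difference may have been part of the choice of the genes, so this is not independent support. Of the 8 probes tested, 0 passed a limma adjusted p of 0.05, and over all 22751 probes 0 did (0%). The non-coding RXRG probe, kept only through the CEM RES FK866 arrays, is among the 8. At an unadjusted p under 0.05 there were 2, POLR2M and PPAN-P2RY11 A_23_P4696, against 5.15% of all probes, and 1 of them, POLR2M, also passed the study's limit of 0.75 on the log2 difference, against 1.3% of all. For 1 probe, PPAN-P2RY11 A_23_P4696, the groups did not overlap, against 2.91% of all. The differences were above 0 for 4 probes and below 0 for 4, with a median of -0.03 beside -0.02 over all probes. The 95% interval of the CEM RES difference left out the CEM PA difference of the same probe for 8 of 8 probes. The genes were chosen for large CEM PA differences, so nothing is read from that count.

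Between the mock-treated lines, 6 of the 8 probes passed a limma adjusted p of 0.05, beside 47.6% of all probes. KLHL11, POLR2M and C2orf27A were the 3 higher in CEM RES (24.9% of all probes) and RASD1, PHLDA2 and PPAN-P2RY11 A_23_P4696 the 3 lower (22.7%). POLR2M and PHLDA2 were kept only through the CEM PA FK866 arrays, and the non-coding RXRG probe only through the CEM RES FK866 arrays. The counts of this paragraph include these probes. PHLDA2 was not well above background on any of these 7 arrays, so its direction is not read. POLR2M was well above background on 2 of 4 CEM RES mock and 0 of 3 CEM PA mock arrays. Its difference with normexp was 0.13 (limma adjusted p = 0.302). The groups did not overlap for 6 probes, beside 48.8% of all, and 4 probes, those of KLHL11, RASD1, POLR2M and PHLDA2, passed an unadjusted p of 0.05 with a log2 difference over 0.75, beside 35.6% of all. The median difference of the 8 probes was 0.21 and that of all probes 0.04. The list itself was not tested, and its counts are a description.

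**Figure D4:**
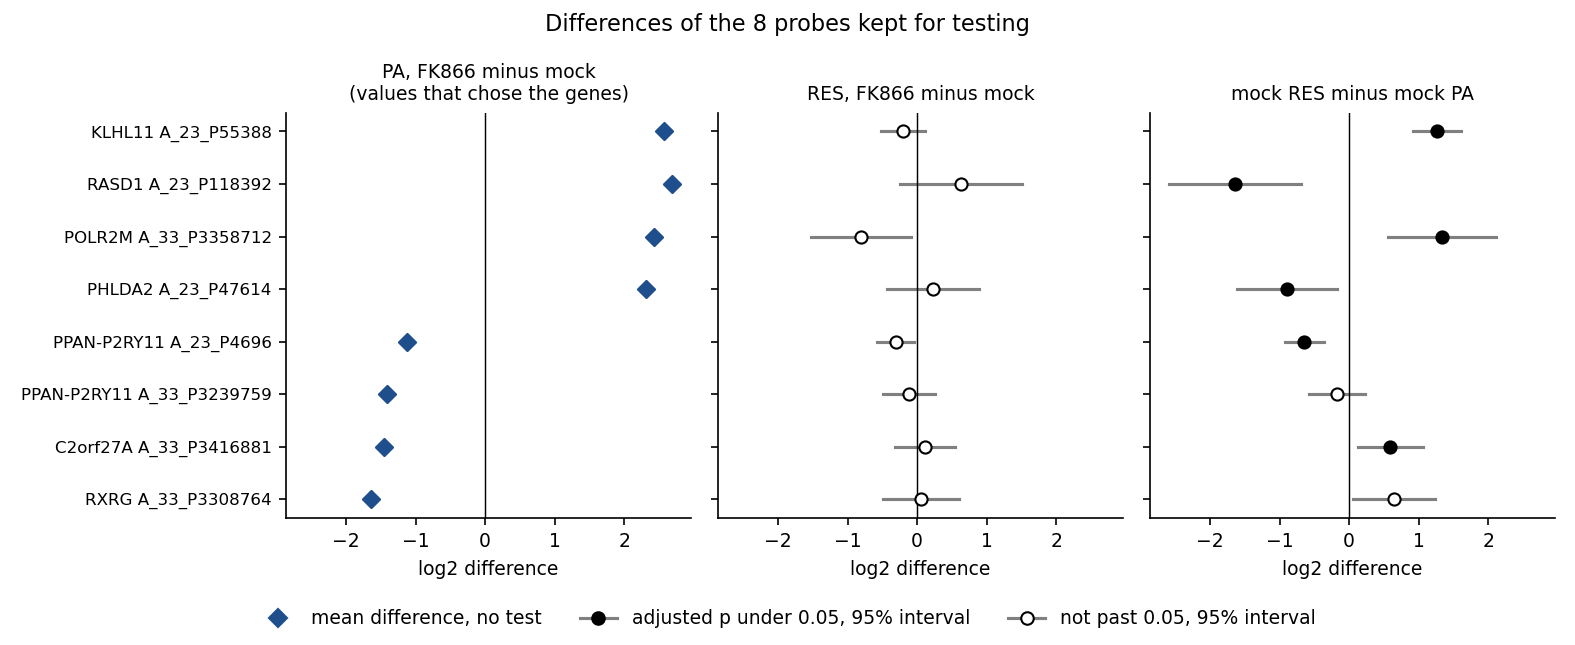
Log2 differences (horizontal axis) of the 8 probes tested, in CEM PA (diamonds, no test), in CEM RES and between the mock-treated lines (circles with 95% intervals, filled where the limma adjusted p was under 0.05). The CEM PA differences run from -1.64 to 2.69, and no circle of the CEM RES panel is filled. In the line panel 6 circles are filled, those of the dim POLR2M and PHLDA2 probes among them.

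The 7 genes were set beside genes related to them by family or locus. With FK866 in CEM PA, 1.53% of all probes passed an adjusted p of 0.05. Of the CUL3 ligase and its kelch adaptors, 1 of 32 probes, from 25 measured genes, did. This was the probe of KLHL15, a kelch adaptor like KLHL11. It stood at 4.81 with mock and 6.60 with FK866 (log2 difference 1.79, SE 0.18, limma adjusted p = 0.000871). None of the 12 RNA polymerase II subunits, 8 RAS-like GTPases and RASD1 partners, 8 PHLDA family and imprinted neighbours, 15 ribosome assembly factors and 11 RXR partners measured passed there (0 in each list). The ribosome assembly probes had differences of 0.03 to 0.70 in CEM PA, with a median of 0.42, and 0 genes of any list passed in CEM RES.

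Between the mock-treated lines the lists had calls in both directions except that of ribosome assembly, in a comparison where 47.6% of all probes were called. By probes, 13 were higher and 4 lower of 20 for RNA polymerase II, and 9 and 0 of 16 for ribosome assembly. For the CUL3 ligase and kelch adaptors 6 were higher and 14 lower of 32. The counts that follow are of genes, and a gene with several probes has more chances of a call. Of the 12 RNA polymerase II subunits, 9 had a probe that was higher in CEM RES and 3 one that was lower, with a median log2 difference of 0.72 beside 0.04 over all probes; POLR2J (1.74), POLR2L (1.34) and POLR2I (1.17) were higher, and of the POLR2F probes 3 were higher and 2 lower. Of the 15 factors of large ribosomal subunit assembly, to which PPAN belongs, 9 were higher and 0 lower, with a median of 0.66; MRTO4 (3.01), FTSJ3 (1.43), NOP2 (1.19) and BOP1 (1.08) led. PPAN itself differed by -0.17 (limma adjusted p = 0.481). Of the 25 genes of the CUL3 ligase and kelch adaptors, 6 were higher and 10 lower, with KLHL25 (-1.58), KLHL6 (-1.40 and -0.60 by its probes), KLHL5 (-1.33 and -1.18) and CUL3 among the lower. CUL3 differed by -1.24 by a probe well above background on 2 of 4 CEM RES mock arrays and by -0.71 by one above it on all of them.

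Beside the 47.6% of all probes, the lists of the PHLDA family and imprinted cluster, the RAS-like GTPases and the nuclear receptors had 4 of 11, 4 of 8 and 6 of 16 probes called. Of the 8 genes of the PHLDA family and the imprinted cluster, 1 was higher, NAP1L4, a nucleosome assembly protein gene (2.64 by 1 probe, while the probe nearest to PHLDA2 had means of 10.18 and 10.36 in mock CEM RES and CEM PA), and 3 were lower, among them PHLDA1 (-2.27), a relative of PHLDA2. Of the 8 RAS-like GTPases and RASD1 partners, 2 were higher and 2 lower: RASD2, the closest relative of RASD1, was higher (0.92), RASL11B (-1.40) and REM2 (-1.12) lower. Of the 11 nuclear receptors, 2 had a probe that was higher and 4 one that was lower. The retinoic acid receptor RARG was higher (0.80), while the probes of RARA differed by 1.12 and by -0.48 (adjusted p = 0.264). For PPARA they differed by -1.10 and -0.23 (adjusted p = 0.521). For NR4A2 they differed by -1.39, with 1 of 4 CEM RES mock arrays well above background, and by -0.10 (adjusted p = 0.760). The other differences named here passed a limma adjusted p of 0.05.

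The genes whose levels tracked the 7 most closely over the 13 arrays were found by the root mean square (RMS) difference between probes after each was centred on its own mean, as a description. The 13 arrays include those of CEM PA that chose the genes. Chosen genes that moved the same way there come near the same matches by that choice, so nothing is read from shared matches. For KLHL11, whose own SD over the arrays was 0.83, they were PLEKHM3 (0.263), ATP2B4 (0.291), a calcium pump, and IKZF2 (0.319), a lymphoid transcription factor. POLR2M, itself dim, was nearest to LATS1 (0.406), a Hippo pathway kinase, PLEKHM3 (0.432) and RALGAPA1 (0.466), and so shared PLEKHM3 with KLHL11. RASD1 was nearest to C20orf4 (0.346), MYLIP (0.479) and FGD4 (0.552), while PHLDA2, not well above background on 11 of 13 arrays, is given no match. Among the genes that were lower with FK866 in CEM PA, PPAN-P2RY11 was nearest to FAHD2A (0.191), STK32C (0.204) and HAR1A (0.211), and C2orf27A to DOK3 (0.314), MLH3 (0.321), a mismatch repair gene, and the unnamed probe A_33_P3385912 (0.343). RXRG, also dim, was nearest to HDHD1 (0.354), NT5DC2 (0.393) and C2orf27A itself (0.404).

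RefSeq promoter sequences (GRCh38.p14, 250 bases before to 50 after the start) were matched by symbol for 4 of the 7 genes, KLHL11 at chr17:41865374-41865673, RASD1 at chr17:17496346-17496645, POLR2M at chr15:57706464-57706763 and RXRG at chr1:165445077-165445376. C2orf27A was matched as LINC03124 at chr2:131682249-131682548, and PPAN and P2RY11 as separate genes with 2 entries and 1. Searched on both strands, none of these 8 held the cyclic AMP response element TGACGTCA, the AP-1 site TGANTCA, the ATF4 and C/EBP composite TGATGNAAN or the E-box CACGTG (0 matches each). Over all 35116 promoters of the table, 1.85%, 7.71%, 3.61% and 7.26% held them. The promoters of RASD1 and KLHL11 were rich in G and C, at 76.3% and 70.7%, beside a median of 58.7% over all promoters, and those of LINC03124, RXRG and POLR2M stood at 65.3%, 62% and 55.7%.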

How the data were processed

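RNA of mock-treated and FK866-treated CEM PA and CEM RES was hybridized to 13 one-colour Agilent arrays, labelled as biological replicates; p-values measure the spread between them. The authors deposited the spot intensity of each array from Agilent Feature Extraction (10.7.7.1 in the labels, 10.7.3.1 in the file headers), background-subtracted and not normalized between arrays, with 0 or 1 flags (another column) for spots well above background. The deposited log2 table, quantile normalized by the authors, served as an alternative. Columns of values not mapped to a sample numbered 0.

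Members and lists were chosen with earlier results of these data known. Processed signals, without control and outlier spots, were put on the log2 scale, quantile normalized and averaged per probe. A probe counted as well above background where over 50% of its spots did, and was kept where it was so on every array of 1 group or more (22751 of 34127 probes, 32 of them with a missing value on some array). The 4 groups were fitted in 1 model with limma 3.58.1 (R 4.3.3, prior degrees of freedom 3.25), two-sided, with Benjamini-Hochberg adjustment over all kept probes. An "at least" fold set the dim group at the higher of its own signal and the lowest signal among probes well above background on the array. It holds for the main background subtraction only. The within-array test of the PPAN-P2RY11 probes was chosen after their values were seen; its two-sided exact permutation used Python 3.11.15 and SciPy; figures used matplotlib 3.10.9. The fit was tested on simulated data.

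The text names every probe of the 7 genes, of each related list up to 4 genes with the largest difference past an adjusted p of 0.05 and 0.75, the detected shared or neighbouring transcripts, and the 3 nearest genes by RMS difference; not every gene so covered is printed. Alternatives were each array scaled to its 75th percentile, normexp (offset 50), no filter or a filter on all 13 arrays, outlier spots kept, 1 probe per gene, the deposited table, only the groups compared, replicate number, slide or scan session as a block, array weights, an intensity trend and each array left out. Equal replicate numbers deviated together (correlation across probes 0.460 and 0.353 in CEM PA, 0.199 to 0.474 in CEM RES), so the numbers were taken as pairs. Arrays of equal number also shared a scan session. In CEM RES, replicates 2 and 3 shared a slide (0.388 and 0.474) and replicates 1 and 4 did not (0.199 and 0.289). Whether the numbers pair cultures or follow slide and session was not tested. The main fit and the permutation test did not use these pairs, while the fit with replicate number as a block did. Arrays give no counts; their number limits the precision. The study's other cell line was not analysed here.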

Additional observations from a re-analysis of the deposited data

Results flagged for a closer look

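Of 18 groups of 4 arrays examined, 1 held an array whose gap to the nearest array passed Dixon's limit. PPAN-P2RY11 probe A_33_P3239759 was at 8.85 on CEM RES FK866 replicate 4, while the other 3 arrays of that group lay between 8.19 and 8.29, so the gap took 0.854 of the group's range. Chance gives such a gap in about 1 of 20 groups.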

How the results depend on the processing

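FK866 against mock in CEM RES gave 0 called probes under each of 26 alternatives, with the replicate block among them (0 of 8; the block was fitted within each line only). Between the mock-treated lines the count of 6 became 3 with normexp background correction and 2 of 3 probes kept with a filter on all 13 arrays, and was 4 to 7 otherwise. The CEM RES difference of PHLDA2 reversed to -0.0370 with scaling to the 75th percentile and to -0.10 without CEM RES FK866 replicate 4 (up to 0.37 with other arrays left out), that of PPAN-P2RY11 A_33_P3239759 to 0.0180 with normexp, and that of RXRG to -0.00367 with scaling, -0.000446 with normexp, -0.10 without CEM RES FK866 replicate 3 and -0.09 without CEM RES mock replicate 1 (up to 0.21 with other arrays left out). Of 24 alternatives between the lines, 11 lost the call of PHLDA2, 11 that of C2orf27A and 1 that of POLR2M, and 5 gave one for RXRG; KLHL11 and RASD1 kept theirs in all alternatives run for them. Signal over background limits POLR2M, PHLDA2, C2orf27A and RXRG.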
